A study of Rattus norvegicus with 9 samples.

Results

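The comparison described here is that of PC12 cells after oxygen-glucose deprivation and reoxygenation (OGD/R) with untreated control cells, and its members are the expressed features, chosen by a mean of at least 10 FPKM (fragments per kilobase of transcript, scaled to the reads of the library) over the 6 libraries compared. Of the 23426 features listed in each library, 7403 were expressed by this rule. They made up 39.4% of the 18810 features above 0 in at least 1 of the 6 libraries, and held between 96.3% and 97.0% of the summed FPKM of a library. PC12 is a line from a rat adrenal medullary chromaffin tumour, used here in a highly differentiated state in all libraries. The 3 control libraries came from untreated cells. The 3 OGD/R libraries came from cells held for 4 h in glucose-free medium at 1% oxygen and then for 6 h in normal medium with oxygen restored. The series also holds 3 libraries of cells transfected with miR-483-5p mimics 48 h before OGD/R, which were left out of the comparison, and no control mimic is named in the labels of the OGD/R group. PC12 is 1 cell line, and the labels do not say whether the libraries of a group came from separate cultures, so p-values measure only the spread between these libraries, which may be technical.

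OGD/R is a culture model of ischemia followed by reperfusion. Loss of oxygen and glucose stops oxidative phosphorylation and drains glycolysis of its substrate, so ATP falls, and cells respond by stabilising hypoxia-inducible factors and by the integrated stress response, which slows translation. The return of oxygen brings a burst of reactive oxygen species and protein damage, to which cells are known to respond with heat shock and antioxidant programs. Which of these programs the features below belong to cannot be stated, because the features are given as rat Ensembl gene identifiers or as numbered assembled loci with no symbol beside them, and the gene table used here held 0 of them. For the same reason the cell line could not be checked against chromaffin markers, and no sequence is printed. FPKM is a share of the RNA sequenced, so less RNA per cell and the loss of some cells cannot be told apart in these bulk libraries.

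The libraries separated first by labelled group. The labels name 2 library kits without assigning them to libraries, so whether the kit differed between the groups is unknown and was not tested. Among the expressed features, the first principal component of log2(FPKM + 0.1) held 86.9% of the variance and lay between -32.5 and -32.3 in the control libraries and between 25 and 39.5 after OGD/R. Pearson correlations across these features, which are not independent replicates, were 0.986 to 0.993 between control libraries, 0.970 to 0.988 between OGD/R libraries and 0.853 to 0.895 between the groups. OGD/R replicates 2 and 3 lay at the ends of their group on the first principal component, at 25 and 39.5, with replicate 1 at 32.6. Replicate 3 correlated at 0.985 and 0.970 with OGD/R replicates 1 and 2, and at 0.991, 0.990 and 0.979 with mimic replicates 1, 2 and 3. Mimic replicate 3 correlated at 0.9875 and 0.9857 with OGD/R replicates 1 and 2, and at 0.9855 and 0.9842 with mimic replicates 1 and 2. The labelled groups were kept, and an exchange of labels was not tested. Counts that changed markedly without OGD/R replicate 2 or 3 are given beside the results. Features above 0 numbered 15792 to 16017 in the control libraries and 16506 to 17149 after OGD/R, and the depth in reads is unknown, since only FPKM values were used.

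Most of the expressed features differed between the groups, but most changes were small. An adjusted p under 0.05, the condition for a call, was reached by 4871 of the 7403 expressed features, or 65.8%, against a background of 45.7% of all features tested (limma, Benjamini-Hochberg adjustment over the 18810 features). Of these, 1603 were higher after OGD/R and 3268 lower, a split that was 2352 and 2325 with median-ratio scaling between libraries and 2560 and 2063 with upper-quartile scaling. They made up 21.7% and 44.1% of the expressed features, where the background was 15.9% higher and 29.8% lower. The change was under 2-fold for 3795 of the 4871, or 77.9%. The median log2 fold change was 0.63 among the features that rose and -0.63 among those that fell. The standard error of the log2 fold change had a median of 0.09, so that changes as small as 0.13 on the log2 scale passed the test. Among the 2532 expressed features that did not pass, 2485 had an absolute log2 fold change under 0.5. Control and OGD/R libraries were fully separated for 5459 expressed features, or 73.7%, against 54.6% of all features tested. The methods of the study state another criterion, a 2-fold change with a P value under 0.05, and name the edgeR software. With these thresholds on unadjusted limma p-values instead, 1078 expressed features differed, 410 higher and 668 lower. They were 14.6% of the expressed features, against 18.4% of all features tested.

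At the threshold that defined the members, the expressed feature just inside had a mean of 10.00 FPKM over the 6 libraries, 8.97 FPKM in control and 11.03 FPKM after OGD/R. The feature just outside had a mean of 9.998 FPKM, 10.8 FPKM in control and 9.24 FPKM after OGD/R.

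With FPKM as deposited, the balance between rises and falls turned with the size of the change, among the expressed features as among all features tested. With median-ratio and upper-quartile scaling it did not turn, since rises led among all calls and at 2-fold (564 against 410 and 624 against 350) as well as at 4-fold. As deposited, moderate changes were more often falls. Calls with an absolute log2 fold change of at least 0.5 were 1006 upward and 2127 downward, or 13.6% and 28.7% of the expressed features against 12.4% and 23.1% of all features tested. Those of at least 1 were 408 upward and 668 downward, or 5.51% and 9.02% against 7.1% and 10.3%. Large changes were more often rises. At least 4-fold higher were 91 expressed features, or 1.23% of them against a background of 1.9%, and at least 4-fold lower were 37, or 0.50% against 1.06%. The 37 became 24 without OGD/R replicate 3, 59 without OGD/R replicate 2 and 19 with upper-quartile scaling. At least 8-fold higher were 23 features, or 0.311% against 0.404%, and at least 8-fold lower were 5, or 0.0675% against 0.112%. The 91 and the 37 together were 2.63% of the changed features.

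The levels of the features with 4-fold changes are given as a description, since a mean of at least 10 FPKM over both groups sets a minimum for the group in which such a feature is high. The 91 that rose had control means of 0.807 to 757 FPKM with a median of 9.13 FPKM, and OGD/R means of 17.4 to 3914 FPKM with a median of 61.5 FPKM. After OGD/R, 33 of the 91 reached a group mean of at least 100 FPKM, where 3 had stood in control. The 37 that fell started from control means of 16.6 to 275 FPKM with a median of 27.7 FPKM, and ended at 2.34 to 33.8 FPKM with a median of 5.86 FPKM. Of the 37, 8 stood at 100 FPKM or more in control and 0 after OGD/R. Many of these features counted as expressed only through the group in which they were high: 51 of the 91 were under 10 FPKM in control and 24 of the 37 were under 10 FPKM after OGD/R. When both group means had to reach 10 FPKM, 40 features were at least 4-fold higher and 13 at least 4-fold lower. No expressed feature was at 0 in all libraries of a group.

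The 4 features named next were chosen for the size of their change, a call and the separation of the groups, so these are given as a description, with no test. Each was a member only through the group in which it was high, with a mean under 10 FPKM in the other. The feature with the largest rise among expressed features was ENSRNOG00000050647. Control replicates 1, 2 and 3 stood at 1.33, 0.58 and 2.05 FPKM, and OGD/R replicates 1, 2 and 3 at 70.3, 42.78 and 523.48 FPKM. All OGD/R libraries lay far above all control libraries, and OGD/R replicate 3 lay far above the other two. On the log2 scale it rose by 6.51, with a standard error of 0.93. Leaving out OGD/R replicate 3 gave 5.43, and leaving out replicate 2 gave 7.23.

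ENSRNOG00000045654 showed the second largest rise and the same order of libraries at a higher level. Its control libraries were at 4.39, 6.25 and 3.4 FPKM, and its OGD/R libraries at 213.35, 116.3 and 1421.35 FPKM. The spread within OGD/R was again wide, with a standard deviation of 727 FPKM around a mean of 584 FPKM (n = 3). The rise was 6.14 on the log2 scale, with a standard error of 0.86. It became 5.09 with OGD/R replicate 3 left out and 6.89 with replicate 2 left out. A value in OGD/R replicate 3 of at least 4 times both other OGD/R libraries was found for 3 expressed features, these 2 among them, and the 3 were all higher after OGD/R. No expressed feature reached 4 times both others in OGD/R replicate 2, and 1 did in OGD/R replicate 1.

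The largest fall among features whose groups did not overlap was that of ENSRNOG00000013973, and it was uniform. Control stood at 26.41, 26.89 and 27.24 FPKM and OGD/R at 2.14, 2.23 and 2.66 FPKM. The values within each group were close to each other. The log2 fold change of -3.47 had a standard error of 0.11, the smallest of the 4 named features.

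ENSRNOG00000021902 showed the second largest fall among called features without overlap between groups, from 29.82, 34.26 and 37.66 FPKM in control to 2.7, 7.46 and 2.27 FPKM after OGD/R. OGD/R replicate 2 stayed nearest to control. Its log2 fold change of -3.20 had a standard error of 0.42. Leaving out OGD/R replicate 2 gave -3.72, and leaving out replicate 3 gave -2.88.

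**Figure D1:**
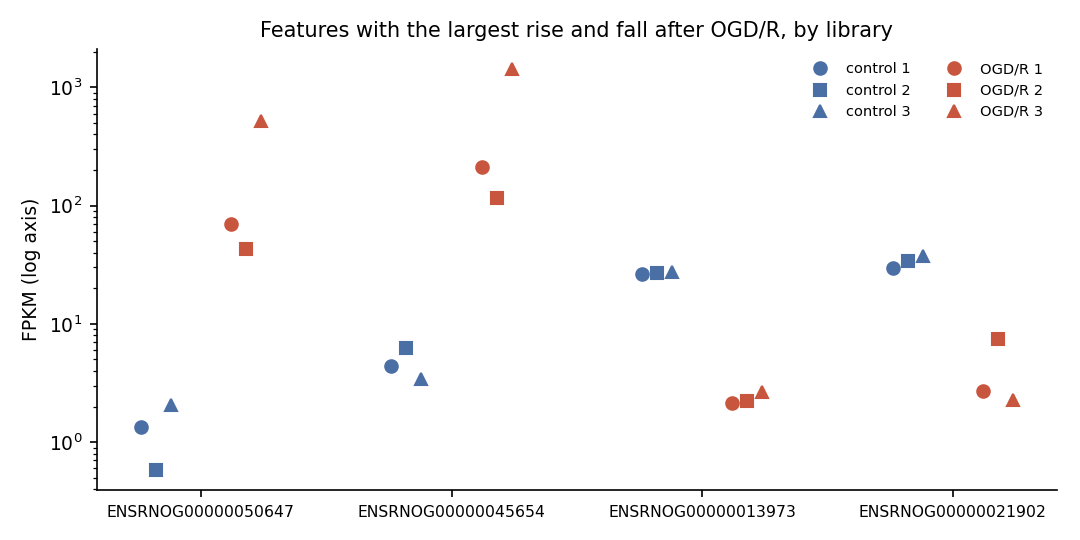
FPKM of the 4 named features on a log axis, 1 point per library, with control libraries in blue, OGD/R libraries in red and the replicate number given by the shape. The 2 features on the left rose from a few FPKM or less to between 42.78 and 1421.35 FPKM, with OGD/R replicate 3 (triangle) highest, and the 2 on the right fell to between 2.14 and 7.46 FPKM.

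With FPKM as deposited, replicate 3 was farthest from control and replicate 2 nearest to it in both named rises and in ENSRNOG00000021902. The same positions were frequent among the other features that fell, and less so among those that rose. Of the 91 features at least 4-fold higher, OGD/R replicate 3 was the highest for 51 and replicate 2 the lowest of the OGD/R libraries for 52. Replicate 3 was itself the lowest for 25 of the 91. Of the 37 at least 4-fold lower, replicate 3 was the lowest for 31 and replicate 2 the highest for 34. The median log2 difference of these 37 from the control mean was -2.34, -1.95 and -2.60 in OGD/R replicates 1, 2 and 3. A 4-fold difference from the control mean was thus reached by 33, 14 and 37 of the 37 in these libraries, and by 84, 78 and 82 of the 91 that rose. Among all 3268 expressed features that fell, replicate 3 was farthest from control for 60.1% and replicate 2 nearest for 62.0%. Among the 1603 that rose, the shares were 46.7% and 47.2%, and replicate 3 was itself nearest for 35.9%. The median log2 difference of the 1603 from the control mean was 0.650, 0.588 and 0.645 in OGD/R replicates 1, 2 and 3. Over all expressed features that median was -0.18, -0.16 and -0.22. The OGD/R libraries also varied more than the controls. The standard deviation of log2 values over the 3 libraries had a median of 0.126 after OGD/R and 0.0752 in control, and it was larger after OGD/R for 5213 expressed features, or 70.4%. The count of features at least 4-fold higher was 85 when replicate 3 was left out and 106 when replicate 2 was.

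With FPKM as deposited, rises and falls were also counted by where they crossed a level, and these counts were not made under the other scalings. In all libraries of both groups, 6205 features were at 10 FPKM or more. A further 647 features were at 10 FPKM or more in every control library and under 10 FPKM in every OGD/R library, and 221 crossed the same level upward. At 100 FPKM, 141 features crossed downward and 92 upward. The number of features at 10 FPKM or more was accordingly 7536 to 7600 in the control libraries and 6856 to 7034 after OGD/R.

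With FPKM as deposited, direction varied with expression level. Between 10 and 30 FPKM, 19.6% of 3726 features rose and 46.9% fell. Between 30 and 100 FPKM, 23.2% of 2574 rose and 43.5% fell, and between 100 and 300 FPKM, 26.7% of 767 rose and 38.5% fell. Between 300 and 1000 FPKM, 19.8% of 252 rose and 34.5% fell. Of the 84 features at 1000 FPKM or more, 25% rose and 21.4% fell. The share of changed features that were higher was thus 29.5% at the lowest level and 53.9% at the highest, and the median log2 fold change was -0.26 and -0.06. Among the 10 most abundant features, with means of 3228 to 6298 FPKM, 6 rose, 1 fell and 3 did not pass the test, with log2 fold changes from -0.67 to 1.18.

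**Figure D2:**
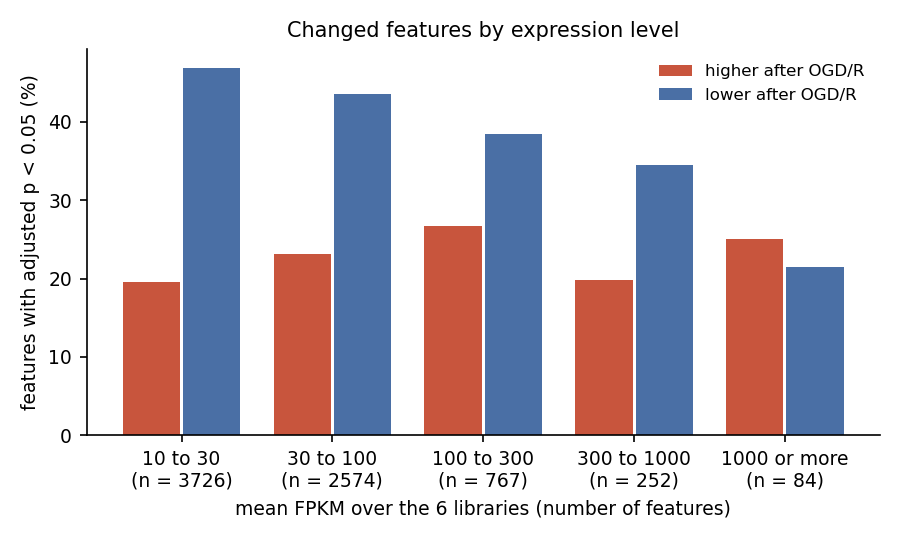
Percent of expressed features with an adjusted p under 0.05 that were higher (red) or lower (blue) after OGD/R, by mean FPKM over the 6 libraries, with the number of features under each level. With FPKM as deposited, which is what is plotted, falls outnumbered rises below 1000 FPKM, from 46.9% against 19.6% at the lowest level, and at 1000 FPKM or more the shares were 21.4% and 25%.

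The sums of FPKM differed little between libraries, from 626477 to 650554 FPKM as deposited, so a gain in some features had to go with a loss of like size in others. The values below show how each was spread over features. The 1603 features that rose held 115153 FPKM in control and 192769 FPKM after OGD/R, sums of group means that were 17.8% and 30.3% of the total. The 3268 that fell held 252436 and 170491 FPKM, or 38.9% and 26.8%. The 2532 that did not pass the test held 39.7% and 39.9%. The gain of 77616 FPKM was concentrated in fewer features than the loss of FPKM: 63 features accounted for 50% of the gain, and 351 for 50% of the loss. The 63 had a median log2 fold change of 0.97 and a median control mean of 391 FPKM, and the 351 had a median of -0.66 and 215 FPKM. The 10 largest gains made up 24.9% of the gain and the 10 largest losses 10.6% of the loss. The 91 features at least 4-fold higher gave 19.2% of the gain, while the 37 at least 4-fold lower gave 2.22% of the loss. The sums of group means were set by the same values as the calls, and they describe the libraries without a test.

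The shape of the FPKM distribution differed between the groups. The sum of FPKM was 645125 to 650554 in the control libraries and 626477 to 645575 after OGD/R, so the ranges overlapped. The 10 most abundant features held 5.74% to 6.10% of the sum in control and 6.87% to 7.38% after OGD/R, and the 100 most abundant 25.7% to 26.6% and 27.6% to 29.2%. The median FPKM of expressed features was 30.65 to 31.31 in control and 27.09 to 28.72 after OGD/R. At the 10th percentile the OGD/R libraries stood at 77.2% to 86.4% of the control mean, at the 90th percentile at 95.7% to 99.2%, and at the 99th percentile at 94.8% to 107.1%. The upper quartile of values above 0 was 28.0 to 28.8 FPKM in control and 22.7 to 24.9 FPKM after OGD/R.

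**Figure D3:**
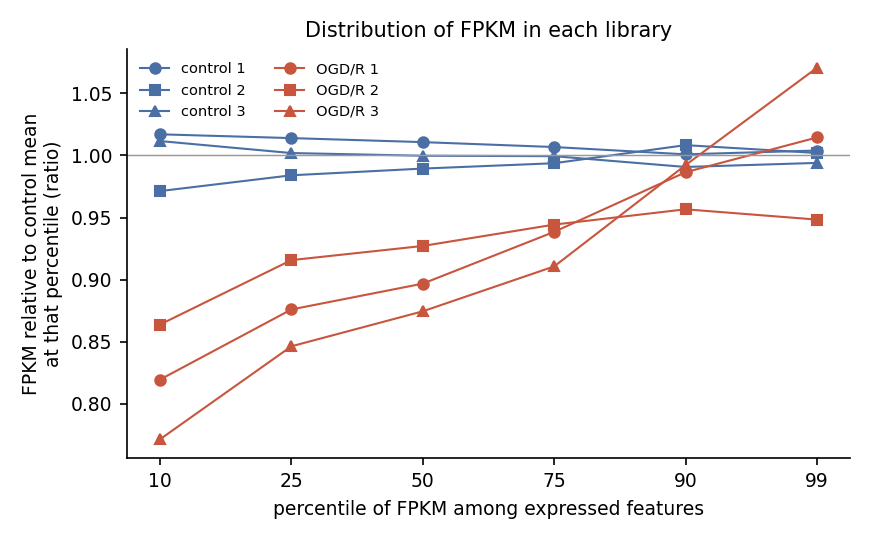
FPKM at 6 percentiles of the expressed features in each library, as a ratio to the mean of the 3 control libraries at that percentile, with control in blue and OGD/R in red. The OGD/R libraries lay lowest at the 10th percentile, at 77.2% to 86.4% of control, and reached 94.8% to 107.1% at the 99th.

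How many features counted as higher or lower depended on the scaling between libraries. With FPKM as deposited, the median log2 fold change of expressed features was -0.19, and 32.9% of the changed features were higher. Scaling to equal sums gave -0.16 and 35.4%. Equal sums without the 100 most abundant features gave -0.11 and 39.8%, quantile normalization -0.06 and 44.7%, median-ratio scaling 0.004 and 50.3%, and upper-quartile scaling 0.06 and 55.4%. Under upper-quartile scaling 2560 expressed features were higher and 2063 lower, in place of 1603 and 3268. Relative to the values as deposited, the fold changes moved by a median of 0.03 to 0.25 on the log2 scale.

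**Figure D4:**
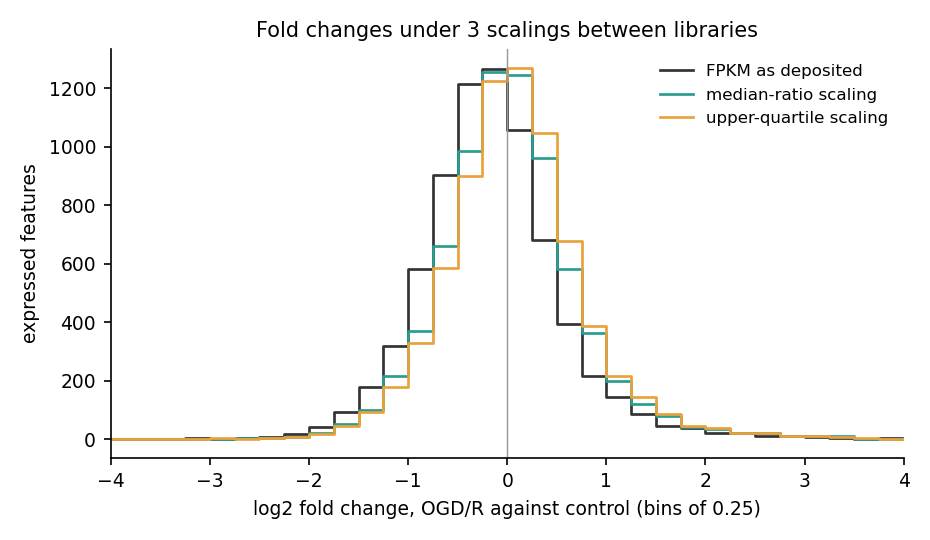
Number of expressed features by log2 fold change after OGD/R, in bins of 0.25, for FPKM as deposited (black), median-ratio scaling (green) and upper-quartile scaling (orange). The shapes are alike and the centre moves from a median of -0.19 to 0.004 and 0.06.

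The scaling changed which features passed the test. No expressed feature passed the test in both directions across the 6 scalings. Shifts with a median of at most 0.25 on the log2 scale could hardly produce this, so it is no test of direction. Of the 4871 features called with FPKM as deposited, 3666 were called in the same direction under upper-quartile scaling, 1205 no longer passed, and 957 others passed in their place. This scaling moved fold changes upward by a median of 0.25 on the log2 scale, so the lost calls were falls and the new ones rises. The fold change of 155 called features changed sign without passing the test, each with an absolute log2 fold change of at most 0.25 as deposited. Over the 6 scalings, 1595 expressed features were called higher and 2051 lower under each. For a change of at least 2-fold, the numbers under each scaling were 407 higher and 348 lower, and for at least 4-fold 91 higher and 19 lower. Each of the 5 other scalings moved the median fold change upward, so that the 91 features at least 4-fold higher as deposited could hardly drop out. Of the 37 at least 4-fold lower, 36 or 37 were still called lower under each and 19 to 32 were still 4-fold lower. Falls in excess of rises were thus seen among moderate changes only with some scalings. At least 2-fold changes were 408 higher and 668 lower as deposited, 564 and 410 with median-ratio scaling, 624 and 350 with upper-quartile scaling, and 538 and 421 after quantile normalization. At 4-fold, where rises were already in excess as deposited, the counts ranged from 91 to 130 higher and from 19 to 37 lower over the 6 scalings, which given the upward shifts is no test of that excess.

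The named features moved upward like the median of expressed features. The moves were small beside the changes for which these features had been chosen, which is no test of their stability. Across the 6 scalings the log2 fold change of ENSRNOG00000050647 was 6.51 to 6.75, that of ENSRNOG00000045654 was 6.14 to 6.39, that of ENSRNOG00000013973 was -3.47 to -3.22, and that of ENSRNOG00000021902 was -3.20 to -2.96.

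The share of changed features that were higher at each expression level also changed with the scaling. With median-ratio scaling, 44.2% of the changed features between 10 and 30 FPKM were higher, and 83.3% of those at 1000 FPKM or more. With upper-quartile scaling the shares were 48.7% and 89.5%. The gap in these shares was thus wider under both than as deposited, where they were 29.5% and 53.9%. The median log2 fold change moved by a like amount at both levels. It was -0.26 and -0.06 as deposited, -0.075 and 0.13 with median-ratio scaling, and -0.02 and 0.18 with upper-quartile scaling. Quantile normalization, which gives the libraries the same distribution, left 44.8% higher at the lowest level and 40.0% at the highest, with medians of -0.06 and -0.08.

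**Figure D5:**
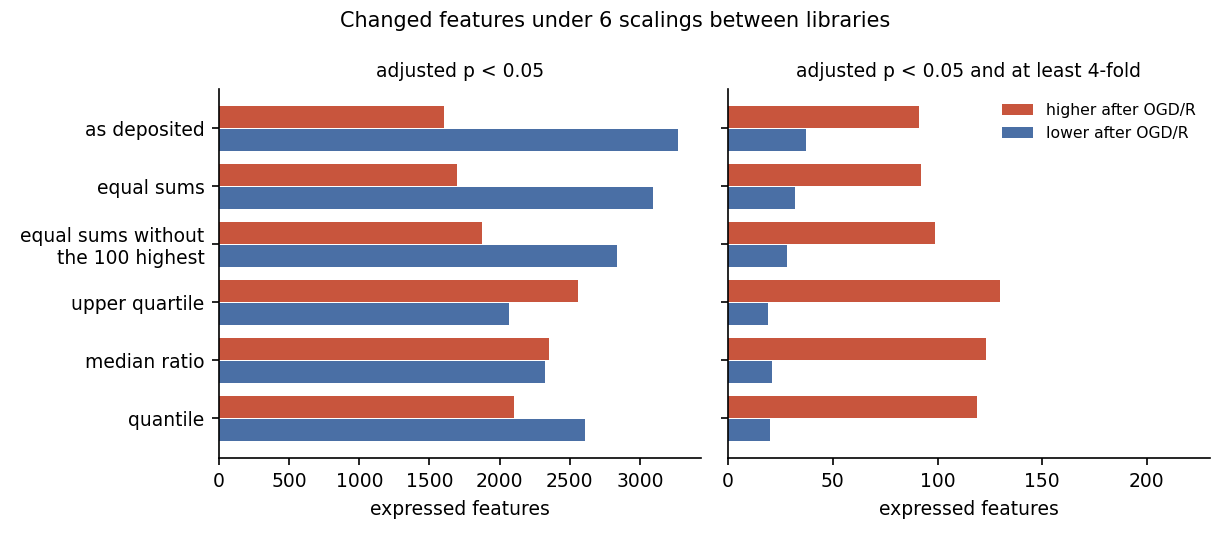
Expressed features higher (red) or lower (blue) after OGD/R with an adjusted p under 0.05 (left) and with at least a 4-fold change in addition (right), under 6 scalings between libraries. Falls outnumber rises on the left as deposited (3268 against 1603) and rises outnumber falls with upper-quartile scaling (2560 against 2063), while on the right rises outnumber falls under each scaling.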

How the data were processed

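The 6 libraries compared, 3 control and 3 OGD/R, were grouped by their titles. After read cleaning, the authors quantified genes with RSEM, and the deposited FPKM values carry 2 decimals. The submitters' processing notes also name Bowtie2 (version 2.3.3.1) and Cufflinks (version 2.2.1), and the genome build is not given in the sources used here. The labels name 2 library kits without assigning them to libraries. One culture detail is not reported here.

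Because FPKM values are not counts, log2(FPKM + 0.1) was tested with limma (version 3.58.1, R version 4.3.3; lmFit, eBayes with a mean-variance trend, 4 residual degrees of freedom, two-sided), without the mimic libraries. The fit was tested on simulated data. Changes of low values are understated on this scale. Alternatives were pseudocounts of 1 and 0.01, filters on mean FPKM (0.1, 1 and 10), 5 scalings between libraries, the replicate number as a block, all 9 libraries in 1 fit, and leaving out each library. Upper-quartile scaling used the 75th percentile of values above 0, and median-ratio scaling the median ratio to the geometric mean over libraries, among expressed features above 0 in all of them. Expressed features were those of the deposited FPKM throughout.

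Named are the 2 features each way with the largest log2 fold change among expressed features with an adjusted p under 0.05 and no overlap between groups. The members and lists were chosen with earlier results of these data known. Gene lists, cell type markers and promoter motifs had been planned but were not analysed here, because 0 identifiers matched symbols.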

Additional observations from a re-analysis of the deposited data

How the results depend on the processing

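When features under a mean of 10 FPKM were not tested, there were 5110 calls, all among expressed features. The main fit, which tested more features, gave 8598 calls in all and 4871 among expressed features. When both group means had to reach 10 FPKM, 40 features were at least 4-fold higher, 13 at least 4-fold lower, and 33.8% of calls were higher. With upper-quartile scaling, calls were 2560 higher and 2063 lower (as deposited 1603 and 3268), and 624 higher and 350 lower at 2-fold (408 and 668). Features at least 4-fold lower numbered 22 with a pseudocount of 1, 19 with upper-quartile scaling, 21 with median-ratio scaling and 20 after quantile normalization. The higher share of calls (32.9%) was 35.4% with equal sums, 39.8% without the 100 most abundant features, 55.4% with upper-quartile scaling, 50.3% with median-ratio scaling and 44.7% after quantile normalization. The median log2 fold change (-0.19) was -0.11 without the 100 most abundant features, 0.0603 with upper-quartile scaling, 0.0038 with median-ratio scaling and -0.0598 after quantile normalization. Why the scalings differ was not tested. Leaving out 1 library at a time gave higher shares of 31.5% to 34.3% and 24 (without OGD/R replicate 3) to 59 (without OGD/R replicate 2) features at least 4-fold lower.

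Pairing by replicate number was not visible in the values. Deviations of same-numbered control and OGD/R libraries correlated at 0.11, 0.00 and -0.03, and of differently numbered ones at -0.14 to 0.12. With so few libraries this cannot decide whether they were paired. With the replicate block, 4348 expressed features and 7479 features in all had an adjusted p under 0.05 by limma, and 91 and 37 were at least 4-fold higher and lower. The named features, chosen for their change, kept its direction under each alternative run on them, which is no test of it. They fall outside the expressed features when both group means must reach 10 FPKM. Alternatives for gene lists were not run. Depth in reads is unknown.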

Other observations

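Among the expressed features, 195 were loci assembled from reads, with no Ensembl identifier. An adjusted p under 0.05 from limma was reached by 66.2% of them, with 55 higher and 74 lower after OGD/R, and by 65.8% of the 7208 expressed Ensembl features, with 1548 higher and 3194 lower. Of the calls, 42.6% were higher for assembled loci and 32.6% for Ensembl features, and the difference was not tested. The median log2 fold change was -0.13 and -0.19. Assembled loci were 4 of the 91 features at least 4-fold higher and 0 of the 37 at least 4-fold lower.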
